A study of Capra hircus with 72 samples.

Results

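The ventral respiratory column (VRC) of goats under moderate chronic hypercapnia was compared with the VRC of goats in room air. Moderate chronic hypercapnia (moderate CH) meant breathing 6% CO2 for 7 days and 8% CO2 for 7 more. Room air goats were kept for 14 days without added CO2. The 12 libraries labelled VRC in these conditions were taken, 6 of moderate CH and 6 of room air, out of 72 in the series. The other libraries cover mild CH (6% CO2 for 14 days) and 3 more regions: the retrotrapezoid nucleus (RTN), the medial prefrontal cortex (mPFC) and the solitary tract nucleus (NTS). All animals were female Capra hircus, and the labels name no strain, age or genetic change. The series text gives 6 animals per condition, but the labels do not tie a library to an animal, so p-values measure the spread between these libraries. Each library holds total RNA of bulk tissue. In such samples, fewer cells of a type and less RNA per cell cannot be told apart.

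The VRC is a column of breathing neurons in the ventrolateral medulla. Its preBötzinger complex sets the rhythm of inspiration, and neighbouring groups shape expiration and pass the drive on to motor neurons. CO2 acts on it through proton-sensing neurons and glia of the RTN and through serotonin neurons of the raphe, which send excitatory input to the column. CO2 also widens brain vessels, and long exposure brings acid-base compensation by the kidney and changes in breathing drive.

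Totals ran from 14.08 to 21.08 M counts in moderate CH libraries and from 15.23 to 22.56 M in room air libraries, and 15302 genes passed the filter on low counts. The labelled region held its markers. SLC6A5, the glycine transporter of inhibitory neurons, averaged 135 ± 28.4 CPM in moderate CH and 119 ± 14.6 CPM in room air (SD, n = 6 each, as for all means below). The hindbrain gene HOXA4 averaged 35.2 ± 10.1 CPM in moderate CH and 32.6 ± 5.51 CPM in room air. CPM are counts scaled to a common library size, per 1e+06 counts. Moderate replicates 1 and 6 and room air replicate 1 stood farthest from their groups, at a root mean square log2 distance of 0.517, 0.409 and 0.39, against 0.277 to 0.345 for the other 9 libraries.

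No gene differed between moderate CH and room air at an adjusted p under 0.05 (edgeR quasi-likelihood test, Benjamini-Hochberg over 15302 genes, 0.0% called), and the smallest adjusted p was 0.223. At an unadjusted p under 0.05 there were 867 genes, 5.67% of those tested, of which 431 were higher (2.82%) and 436 lower (2.85%). The statements below that rest on an unadjusted p are therefore descriptions of genes that did not pass correction. A library decided part of this count. Without moderate replicate 6 the edgeR test gave 1628 genes at an unadjusted p under 0.05 and called 3, the netrin receptor gene UNC5A higher and SLC45A3 and STAC lower, each at an edgeR adjusted p of 0.0497. Limma with quality weights called 0. DESeq2, fitted on the same libraries, called 10 of 15285 genes (0.0654%), 3 higher (0.0196%) and 7 lower (0.0458%). In 32 genes (0.209%) the 6 moderate CH libraries did not overlap the 6 room air libraries, 14 higher (0.0915%) and 18 lower (0.118%). An arbitrary division of the 12 libraries into groups of 6 would separate about the same share of genes. A lack of overlap alone therefore does not mark a response.

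Of the 10 genes that DESeq2 called, 6 carried a symbol. VEGFA, DLL4 and RFLNB were lower in moderate CH, and CLPTM1L, MELTF and PDE9A were higher. VEGFA encodes the main growth factor of blood vessels, DLL4 a Notch ligand of endothelial tip cells, RFLNB an actin regulator, MELTF the iron-binding protein melanotransferrin and PDE9A an enzyme that breaks down cyclic GMP. The other 4, all lower, had only an identifier in the deposited table.

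Several genes of blood vessels were lower in moderate CH. VEGFA stood at 21.3, 24.7 and 36.5 CPM (lowest, median and highest) in moderate CH, against 35.2, 46.1 and 49.6 CPM in room air. Moderate replicate 3 was the single moderate CH library to reach the room air range. VEGFA had a log2 fold change, moderate CH minus room air, of -0.74 ± 0.16 (SE; edgeR adjusted p = 0.462, DESeq2 adjusted p = 0.0162), and leaving out single libraries moved it between -0.86 and -0.69. DLL4 stood at 3.9, 5.28 and 6.36 CPM in moderate CH, against 6.12, 11.3 and 14.0 CPM in room air. The groups touched at moderate replicate 4 and room air replicate 1 and were otherwise apart. DLL4 had a log2 fold change of -1.02 ± 0.23 (edgeR adjusted p = 0.514, DESeq2 adjusted p = 0.017).

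**Figure D1:**
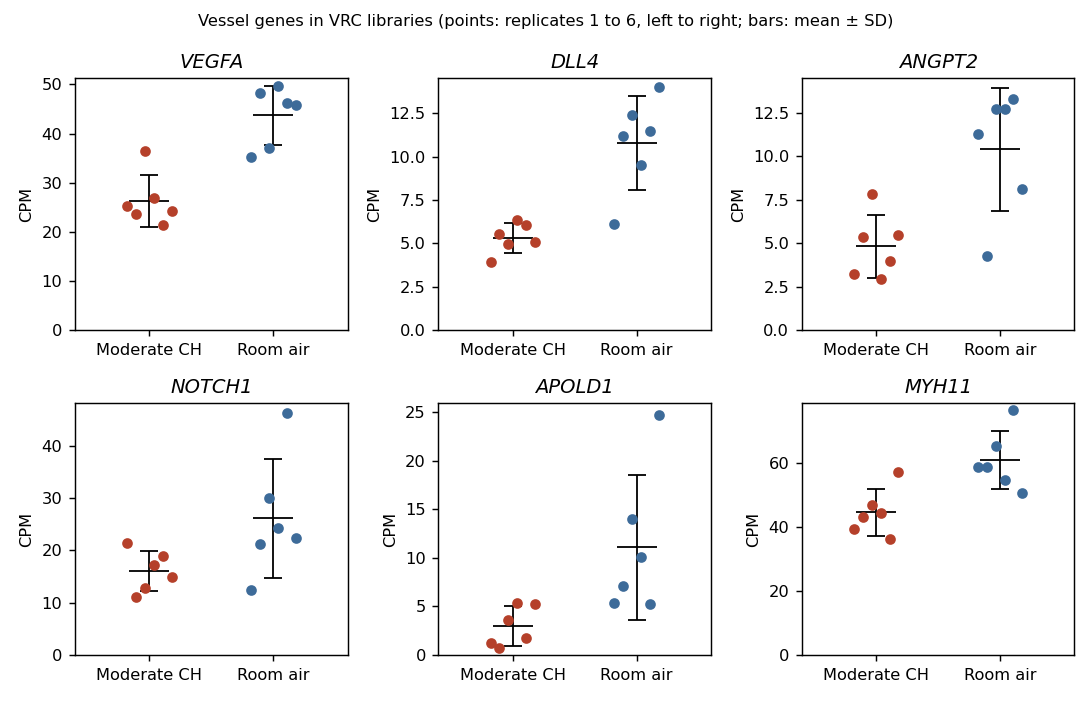
CPM of 6 vessel genes in each VRC library of moderate CH and room air; points are replicates 1 to 6 from left to right within a group and bars the mean ± SD. VEGFA averaged 26.3 ± 5.32 CPM in moderate CH and 43.7 ± 6.05 CPM in room air. The 6 genes were taken from those named as lower, so their shared direction follows from that choice. Of 25 tested vascular Notch and VEGF genes 15 were lower and 10 higher.

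ANGPT2, a ligand that endothelial cells release when vessels are remodelled, stood at 2.92, 4.67 and 7.84 CPM in moderate CH, against 4.26, 12 and 13.3 CPM in room air. Room air replicate 2 was the single room air library inside the moderate CH range. Its log2 fold change was -1.11 ± 0.29 (unadjusted p = 0.000895, edgeR adjusted p = 0.71). NOTCH1, the receptor of DLL4, averaged 16.1 ± 3.91 CPM in moderate CH and 26.2 ± 11.4 CPM in room air, with a log2 fold change of -0.70 ± 0.24 (unadjusted p = 0.00882, edgeR). All 6 moderate CH libraries lay below the room air median for these 4 genes. APLN, the vessel peptide apelin, was the remaining signalling gene at an unadjusted p under 0.05, picked out after its values had been seen: it averaged 2.28 ± 1.03 CPM in moderate CH and 3.75 ± 0.451 CPM in room air.

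Of 25 tested genes of vascular Notch and VEGF signalling, 15 were lower and 10 higher in moderate CH, with a median log2 fold change of -0.11 (-0.18 without room air replicate 2 and -0.06 without room air replicate 5) against 0.01 over all genes. At an unadjusted p under 0.05 there were 5 lower members, the genes given above, and 0 higher ones (2.85% of all genes were lower at this p). Without moderate replicate 6 there were 8 members at this p, against 1628 of 15400 genes in all. In the endothelial cell list, 15 of 17 members were lower, with a median of -0.15. Without room air replicate 5 there were 12 at a median of -0.07, and without moderate replicate 6 there were 16 at -0.26. Its summed level ran from 1110 to 1510 CPM in moderate CH (median 1250) and from 1150 to 1760 CPM in room air (median 1410). The 2 endothelial members at an unadjusted p under 0.05 were APOLD1, an early-response gene of endothelium, and THSD1, which supports its adhesion to the matrix. APOLD1 averaged 2.98 ± 2.02 CPM in moderate CH and 11.1 ± 7.47 CPM in room air (log2 fold change -1.88 ± 0.52). THSD1 averaged 21.0 ± 6.14 CPM in moderate CH and 30.2 ± 7.13 CPM in room air (-0.52 ± 0.20). The part of endothelial cell content in the lower VEGFA and Notch genes was not tested.

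Genes of the vessel wall went both ways. MYH11, the smooth muscle myosin, averaged 44.5 ± 7.27 CPM in moderate CH and 60.8 ± 9.1 CPM in room air, a log2 fold change of -0.45 ± 0.14. ABCC9 and KCNJ8, which together form the ATP-sensitive potassium channel of pericytes, had log2 fold changes of -0.63 ± 0.24 and -0.31 ± 0.15. Among 13 pericyte and smooth muscle genes 7 were lower and 6 higher (median -0.06), 3 and 1 of them at an unadjusted p under 0.05, against 2.85% and 2.82% of all genes. The genes just given are lower members, and the 1 higher gene at this p is not reported here. Without room air replicate 5 the 4 genes became 1, where 744 of 15396 genes in all were at this p. The median was 0.02 without room air replicate 1 and 0.04 without moderate replicate 4. ADM, the dilator peptide adrenomedullin, averaged 15.5 ± 3.79 CPM in moderate CH and 22.6 ± 6.59 CPM in room air (log2 fold change -0.55 ± 0.20). It was counted among 24 genes of hypoxia and glycolysis, 14 of which were higher and 10 lower, with a median of 0.13. The 2 at an unadjusted p under 0.05, VEGFA and ADM, became 8 genes without moderate replicate 6, with a median of 0.05. Over all genes 1628 of 15400 were at this p without that library. Collagen genes went the other way at single members. COL6A3 averaged 38.4 ± 10.2 CPM in moderate CH and 24.4 ± 8.59 CPM in room air (0.65 ± 0.21), and COL15A1, a basement membrane collagen, 12.6 ± 8.07 CPM in moderate CH and 5.49 ± 3.32 CPM in room air (1.19 ± 0.45), while 9 of 15 collagen and fibroblast genes were lower (6 without room air replicate 5).

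The vessel genes were compared across conditions and regions. Both CO2 conditions share the room air libraries, so their fold changes are not independent. VEGFA averaged 43.7 CPM in room air, 26.1 CPM in mild CH and 26.3 CPM in moderate CH, and DLL4 10.8, 7.07 and 5.31 CPM in the same order. The moderate CH minus mild CH log2 difference was 0.01 ± 0.16 for VEGFA and -0.41 ± 0.23 for DLL4. APOLD1 averaged 11.1 CPM in room air, 1.8 CPM in mild CH and 2.98 CPM in moderate CH. VEGFA and DLL4 were low after either CO2 schedule, with no detected step between mild and moderate CH. In the other regions VEGFA had moderate CH minus room air log2 fold changes of -0.24 ± 0.11 in NTS, -0.30 ± 0.16 in RTN and -0.50 ± 0.21 in mPFC. DLL4 had -0.55 ± 0.22 in NTS, -0.70 ± 0.27 in RTN and -1.12 ± 0.26 in mPFC. The VRC response minus the mean of the other 3 regions was -0.39 ± 0.20 for VEGFA (unadjusted p = 0.0528) and -0.24 ± 0.29 for DLL4 (unadjusted p = 0.406; edgeR over 72 libraries). ANGPT2 had fold changes that lay farther apart between regions. Its log2 fold change was -0.61 ± 0.18 in NTS, -0.15 ± 0.25 in RTN and 0.12 ± 0.34 in mPFC, and the VRC response minus their mean was -0.91 ± 0.32 (unadjusted p = 0.00646). For RFLNB this difference was -0.85 ± 0.33 (unadjusted p = 0.0132). No gene of this test passed correction. The test took the 72 libraries as independent, so its p-values leave out any tie between same-numbered libraries.

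**Figure D2:**
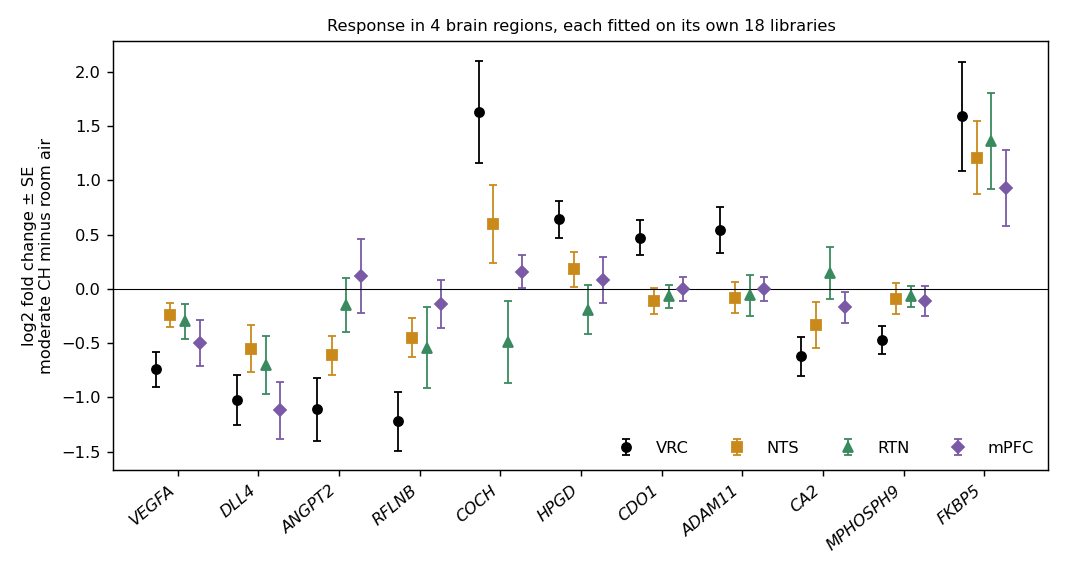
Log2 fold change ± SE, moderate CH minus room air, of 11 named genes in VRC, NTS, RTN and mPFC, each region fitted on its own 18 libraries. VEGFA and DLL4 lie below 0 in all 4 regions, whereas COCH, HPGD, CDO1 and ADAM11 stand highest in VRC. COCH, CDO1 and ADAM11 were named for a small p in the region test, so their place follows from that choice. HPGD was named for a small p in VRC. No gene passed correction in the edgeR region test.

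Same-numbered libraries of the 4 regions in a condition deviated together, with a median r of 0.298 between VRC and another region and 31 of 36 pairs over 0.1. The regions are therefore not independent samples of the response. For each gene, the share of the spread within region and condition that lay between replicate numbers was computed. It had a median of 37.9% over the 15302 genes, where independent libraries would give 25% by degrees of freedom. For VEGFA it was 62.4%, for DLL4 51.3% and for APOLD1 74.8%.

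For the 4 DESeq2-called genes without a symbol it ran from 73.3% to 84.5%. ENSCHIG00000018938, on chromosome 23, stood at 5.55, 7.45 and 11.2 CPM in moderate CH, against 10.8, 38.6 and 62.9 CPM in room air. Room air replicate 2 lay in the moderate CH range, and the other 5 room air libraries were at 30.3 CPM or more. The log2 fold change was -2.36 ± 0.43 (edgeR adjusted p = 0.223, DESeq2 adjusted p = 0.00186). The edgeR test called it in a fit of the 2 groups alone (edgeR adjusted p = 0.0363) and without room air replicate 2 (edgeR adjusted p = 0.0451). Scaled over all 72 libraries, room air replicate 2 had 11.2 CPM in VRC, 13.6 in NTS, 6.72 in RTN and 7.13 in mPFC, and room air replicate 4 had 56.6, 87.1, 52.9 and 128 CPM in that order. Room air replicate 2 was thus low in all 4 regions, and replicate numbers held 75.1% of the spread within region and condition. The nearest genes with a symbol in the deposited table were POU5F1, TCF19 and CCHCR1.

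**Figure D3:**
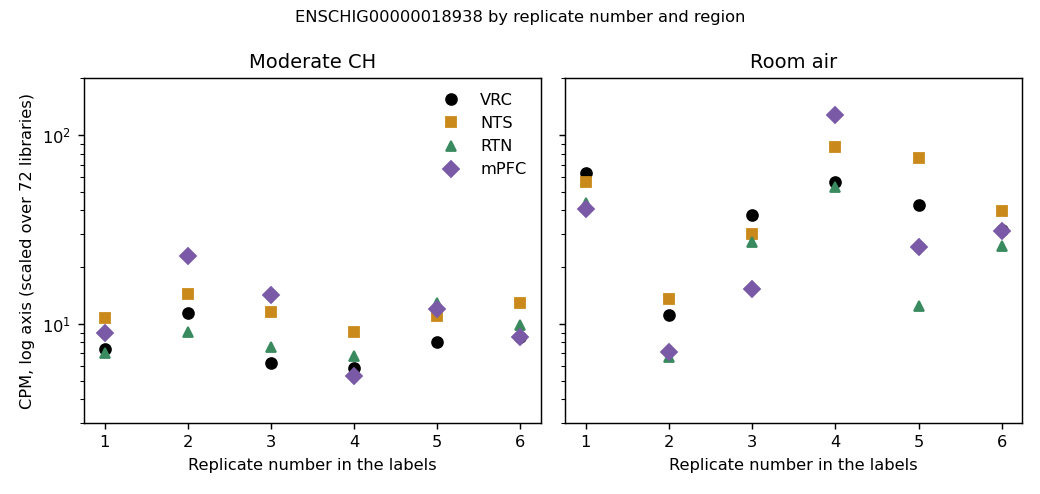
CPM (log axis, scaled over 72 libraries) of ENSCHIG00000018938 by replicate number in moderate CH and in room air, with a marker for each region. Room air replicate 2 is the lowest of room air and replicate 1 above its median in all 4 regions, whereas room air replicate 5 runs from 12.5 to 75.8 CPM; the moderate CH libraries run from 5.28 to 22.8 CPM, whereas room air libraries run from 6.72 to 128 CPM.

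The other 3 genes without a symbol also had shares above the median. ENSCHIG00000012657, also on chromosome 23 and near CDSN and CCHCR1, averaged 2.39 ± 1.42 CPM in moderate CH and 10.4 ± 4.4 CPM in room air (log2 fold change -2.14 ± 0.50), and numbers held 78.6% of its spread. ENSCHIG00000010149, on an unplaced scaffold, averaged 2.6 ± 0.873 CPM in moderate CH and 23.9 ± 19.5 CPM in room air (-3.20 ± 0.72), with 84.5%. ENSCHIG00000026196, on chromosome 18, averaged 0.231 ± 0.142 CPM in moderate CH and 2.12 ± 1.17 CPM in room air (-3.15 ± 0.59), with 73.3%, and its groups did not overlap. CAHI-DQA2, which the table names as a class II histocompatibility gene and places on chromosome 23, averaged 11.5 ± 8.27 CPM in moderate CH and 48.4 ± 47.5 CPM in room air (-2.08 ± 0.56), with 75.4%. Room air replicate 1 had 142 CPM and the other 5 between 15.6 and 45.2 CPM. Whether a replicate number marks 1 animal is not stated, and the part of such differences between numbers in the lower levels was not tested. How reads were divided between near-identical histocompatibility genes is not stated, so these levels are uncertain. CLPTM1L, on an unplaced scaffold, did not follow the numbers (23.3%). It averaged 63 ± 14.3 CPM in moderate CH and 41.1 ± 2.5 CPM in room air, a log2 fold change of 0.62 ± 0.13, against -0.33 ± 0.31 in NTS, -0.45 ± 0.46 in RTN and -0.06 ± 0.37 in mPFC.

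Immune lists were low in moderate CH without any member called. All 11 antigen presentation genes were lower, with a median log2 fold change of -0.49, and 0 of them reached an unadjusted p of 0.05. CD74, the class II invariant chain, averaged 115 ± 36.8 CPM in moderate CH and 164 ± 84.9 CPM in room air, and HLA-DRA 50.3 ± 14.6 CPM in moderate CH and 75 ± 40.6 CPM in room air. Room air replicate 1 was highest for HLA-DRA, at 154 CPM. Without it 10 of the 11 genes were lower and the median was -0.24. Of 25 interferon response genes 23 were lower (median -0.35), and 1, IFI44L, had an unadjusted p under 0.05, at 5.68 ± 2.06 CPM in moderate CH and 9.53 ± 3.89 CPM in room air. That count was 7 without moderate replicate 6 (median -0.53), 6 without room air replicate 2, and 0 without room air replicate 4 (median -0.23) or moderate replicate 4. Over all genes the counts were 1628 of 15400 without moderate replicate 6 and 871 of 15404 without room air replicate 2. They were 748 of 15402 without room air replicate 4 and 771 of 15398 without moderate replicate 4. Of 15 microglia and macrophage genes 14 were lower (median -0.23). Without room air replicate 1 there were 10, at a median of -0.05.

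Genes higher in moderate CH included several of neurons. UNC5A, a receptor for the guidance cue netrin, stood at 23.7, 40.1 and 46.7 CPM in moderate CH, against 22.2, 26.5 and 29.7 CPM in room air. Moderate replicate 6 was the low one, and the other 5 moderate CH libraries, from 38.2 CPM up, lay above all room air libraries. UNC5A had a log2 fold change of 0.56 ± 0.14 (edgeR adjusted p = 0.703). SYN2, a synapsin that holds synaptic vesicles, averaged 30.2 ± 10.4 CPM in moderate CH and 16.5 ± 4.3 CPM in room air (0.88 ± 0.25). KCNMB4, the neuronal beta subunit of the calcium-activated BK potassium channel, averaged 19.0 ± 6.22 CPM in moderate CH and 9.35 ± 4.29 CPM in room air (1.02 ± 0.27). SYBU, a linker of vesicles to kinesin motors, averaged 136 ± 26.9 CPM in moderate CH and 97.5 ± 15 CPM in room air (0.48 ± 0.14). All 6 moderate CH libraries lay above the room air median for SYN2, KCNMB4 and SYBU, though the ranges overlapped.

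Other higher genes were of signalling and lipid metabolism. NPPC, C-type natriuretic peptide, which raises cyclic GMP, averaged 94.2 ± 34.7 CPM in moderate CH and 54.4 ± 13.4 CPM in room air (0.79 ± 0.23). PDE9A, which degrades cyclic GMP, stood at 28.5, 30.8 and 33.9 CPM in moderate CH, against 18.6, 23.6 and 26.8 CPM in room air. The groups did not overlap, and the log2 fold change was 0.42 ± 0.10 (edgeR adjusted p = 0.642, DESeq2 adjusted p = 0.0236). HPGD, which inactivates prostaglandins, averaged 9.93 ± 2.6 CPM in moderate CH and 6.39 ± 0.612 CPM in room air (0.64 ± 0.17). DGAT2, which makes triglycerides, averaged 11.6 ± 1.37 CPM in moderate CH and 8.5 ± 0.733 CPM in room air (0.45 ± 0.12), and ACSF3, a mitochondrial malonyl-CoA synthetase, 25 ± 6.27 CPM in moderate CH and 17.6 ± 1.41 CPM in room air (0.50 ± 0.15). MELTF was low in either group, at 2.14 ± 0.966 CPM in moderate CH and 0.539 ± 0.328 CPM in room air (1.99 ± 0.46, DESeq2 adjusted p = 0.0282). FAM20A, a pseudokinase of the secretory path, averaged 14.8 ± 4.81 CPM in moderate CH and 7.46 ± 3.27 CPM in room air (0.99 ± 0.29).

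Most members of the neuronal lists were higher in moderate CH without passing correction. All 12 general neuron genes were higher in moderate CH, with a median log2 fold change of 0.27, and SYN1 (205 ± 49.4 CPM in moderate CH and 154 ± 18.7 CPM in room air) was the 1 at an unadjusted p under 0.05, against 2.82% of all genes. Of 14 myelin and oligodendrocyte genes 11 were lower, with a median of -0.23. The summed neuron genes ran from 8640 to 21700 CPM in moderate CH (median 17800) and from 10300 to 16000 CPM in room air (median 14300). The summed myelin genes ran from 24300 to 55200 CPM in moderate CH (median 36700) and from 38200 to 51600 CPM in room air (median 41500). Moderate replicate 6 had the lowest neuron and the highest myelin level of the 12 libraries. Without it 5 of the 12 neuron genes and 6 of the 14 myelin genes had an unadjusted p under 0.05, against 1628 of 15400 genes in all. The medians were then 0.38 and -0.34. Leaving out the extreme library of both lists widens both differences by construction. With the myelin level as a covariate 712 genes had an unadjusted p under 0.05, against 867 without it. The part of neuron and myelin content in single neuronal genes was not tested.

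**Figure D4:**
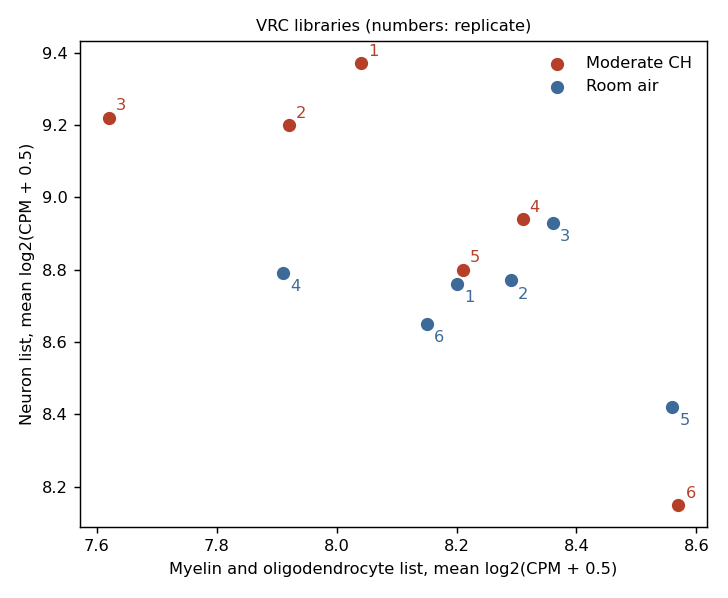
Mean log2(CPM + 0.5) of 12 neuron genes against that of 14 myelin and oligodendrocyte genes in each VRC library of moderate CH and room air, numbered by replicate. Moderate replicates 1, 2 and 3 lie at the high neuron side, from 9.2 to 9.37, and moderate replicate 6 at 8.15, below the room air libraries (8.42 to 8.93).

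Channel genes were mostly higher, as were the general neuron genes (median 0.27). Of 30 pacemaker and potassium channel genes 25 were higher (median 0.23), 3 of them and 0 lower ones at an unadjusted p under 0.05, against 2.82% of all genes. The 3 became 1 without moderate replicate 3, where 650 of 15404 genes were at this p. They became 6 without moderate replicate 6, where 1628 of 15400 genes were. TRPM4, the cation channel linked to inspiratory bursts, stood at 14.2, 15.3 and 22.1 CPM in moderate CH, against 10.9, 11.8 and 13.1 CPM in room air. The groups did not overlap (log2 fold change 0.48 ± 0.18, unadjusted p = 0.0129).

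Of 24 markers of respiratory neurons and neuropeptides 20 were higher (median 0.36), and 3 had an unadjusted p under 0.05, against 2.82% of all genes. The median was 0.17 without moderate replicate 5. ADCYAP1, the peptide PACAP, stood at 46.8, 91.4 and 283 CPM in moderate CH, against 44.9, 61.6 and 120 CPM in room air. Moderate replicate 5 decided part of this (log2 fold change 0.80 ± 0.36, and 0.34 at the lowest when a library was left out). SSTR2, a somatostatin receptor, averaged 10.5 ± 2.5 CPM in moderate CH and 7.65 ± 1.92 CPM in room air (0.45 ± 0.21). None of the 24 genes had an unadjusted p under 0.05 without room air replicate 1 or 3 or without moderate replicate 4 or 5, while 20 to 22 were higher. Over all genes from 671 to 794 were at this p in those fits. Without moderate replicate 6 the count among the 24 genes was 6, against 1628 of 15400 genes in all.

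Cholinergic and motor neuron genes were higher in 13 of 14 cases, with a median of 0.52 (0.34 without moderate replicate 5). ACHE, which breaks down acetylcholine, averaged 481 ± 138 CPM in moderate CH and 354 ± 34.7 CPM in room air (0.44 ± 0.17, unadjusted p = 0.0174), and was the 1 member at that p. CHAT, which makes acetylcholine, averaged 6.49 ± 4.95 CPM in moderate CH and 2.96 ± 1.39 CPM in room air (1.13 ± 0.62, unadjusted p = 0.0805). Inhibitory genes were also mostly higher. Of 16 GABA and glycine genes 13 were higher (median 0.18), with GABBR2, a GABA-B receptor subunit, at 40.4 ± 7.55 CPM in moderate CH and 25.2 ± 6.17 CPM in room air (0.68 ± 0.23). Of 12 GABA-A receptor subunits 10 were higher (median 0.19, and 0.08 without moderate replicate 5). Of 25 glutamate genes 18 were higher (median 0.17). At an unadjusted p under 0.05 there were 3 higher and 1 lower, against 2.82% and 2.85% of all genes. These 4 became 2 without moderate replicate 3, where 650 of 15404 genes in all were at this p. The lower one was GRIN3A, an NMDA receptor subunit (-0.40 ± 0.18), and the 3 higher ones are not reported here.

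Among serotonin genes, SLC6A4, the transporter that marks serotonin neurons, stood at 0.19, 1.21 and 3.07 CPM in moderate CH, against 0.426, 3.45 and 11.8 CPM in room air. Room air replicates 1 and 3 held the high values. SLC6A4 had a log2 fold change of -1.89 ± 0.78 (unadjusted p = 0.0248). TPH2, which makes serotonin, averaged 4.54 ± 2.65 CPM in moderate CH and 9.93 ± 7.15 CPM in room air (-1.13 ± 0.56, unadjusted p = 0.0575). In RTN libraries TPH2 averaged 52.7 ± 35.2 CPM in moderate CH and 80.1 ± 22.4 CPM in room air (scaled over 72 libraries). Several receptors stood higher. HTR5A averaged 12.1 ± 3.76 CPM in moderate CH and 7.86 ± 1.74 CPM in room air (0.62 ± 0.23), HTR3A 2.11 ± 0.913 CPM in moderate CH and 1.04 ± 0.509 CPM in room air (1.02 ± 0.40), and HTR4 1.13 ± 0.647 CPM in moderate CH and 0.559 ± 0.318 CPM in room air (1.01 ± 0.42). In all, 10 of 13 serotonin genes were higher, 3 of them and 1 lower gene at an unadjusted p under 0.05 (2.82% and 2.85% of all genes). Without moderate replicate 5 this was 1 gene of the list, against 749 of 15385 genes in all. Among 15 catecholamine genes 10 were higher (7 without moderate replicate 5), with the adrenergic receptor ADRA1B at 0.48 ± 0.22.

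Genes that sense or buffer CO2 and protons were compared next. Of 19 CO2 and proton sensing genes 12 were higher (median 0.13). CA2, the main carbonic anhydrase of glia, stood at 104, 134 and 223 CPM in moderate CH, against 167, 230 and 271 CPM in room air. Moderate replicate 2 was the single moderate CH library within the room air range (log2 fold change -0.62 ± 0.18, unadjusted p = 0.00267). Of 12 carbonic anhydrase genes 7 were higher. CA8, a relative without enzyme activity, averaged 27.5 ± 9.73 CPM in moderate CH and 19.1 ± 2.62 CPM in room air (0.52 ± 0.21). Of 17 bicarbonate transporters and sodium-proton exchangers 10 were higher (median 0.13).

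Oligodendrocyte genes besides CA2 were among the lower genes named here. Of those below, ERMN and BCAS1 were named as members of gene lists and not for their rank over all genes. ASPA, which cleaves N-acetylaspartate, stood at 27, 30.6 and 43.1 CPM in moderate CH, against 35.6, 46.3 and 59 CPM in room air. Only moderate replicate 6 reached the room air range (-0.54 ± 0.15). SLC45A3, a sugar transporter of oligodendrocytes, averaged 34.6 ± 11.8 CPM in moderate CH and 55.4 ± 6.59 CPM in room air (-0.68 ± 0.17). ERMN, a cytoskeletal protein of myelin, averaged 681 ± 152 CPM in moderate CH and 898 ± 88.2 CPM in room air (-0.40 ± 0.14), and BCAS1, of newly formed myelin, 1620 ± 369 CPM in moderate CH and 2380 ± 495 CPM in room air (-0.56 ± 0.20). Among 14 astrocyte genes 6 were higher and 8 lower, with a median of -0.02. S100B was the 1 at an unadjusted p under 0.05 (1130 ± 300 CPM in moderate CH and 1460 ± 325 CPM in room air), and room air replicate 1 was highest at 2100 CPM.

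Further lower genes of small p had no shared role. STAC, an adaptor of calcium channels, averaged 21.9 ± 9.43 CPM in moderate CH and 38.0 ± 8.57 CPM in room air (-0.80 ± 0.21). ANGPTL2, a secreted angiopoietin-like protein, averaged 5.31 ± 1.72 CPM in moderate CH and 12.5 ± 5.26 CPM in room air (-1.24 ± 0.31). RFLNB averaged 7.24 ± 2.98 CPM in moderate CH and 16.9 ± 3.89 CPM in room air (-1.22 ± 0.27, DESeq2 adjusted p = 0.0162). MPHOSPH9, a centriole protein, averaged 12.7 ± 1.28 CPM in moderate CH and 17.6 ± 2.65 CPM in room air without overlap (-0.47 ± 0.13), and NDE1, a dynein regulator, 45.0 ± 10.1 CPM in moderate CH and 66.9 ± 8.68 CPM in room air (-0.57 ± 0.16). P2RY2, an ATP receptor, and FOXP2, a transcription factor of hindbrain neurons, both stood at -0.63 (SE 0.25 and 0.23).

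Immediate early genes, which mark recent activity or stress, were lower in 20 of 28 cases (median -0.25). At an unadjusted p under 0.05 there were 6 lower genes and 1 higher one, against 2.85% and 2.82% of all genes. Without room air replicate 6 there were 17 lower and 11 higher genes, at a median of -0.17. In that fit 5 of them were at this p, against 918 of 15388 genes in all. CSRNP1, a nuclear regulator of transcription, averaged 23.7 ± 1.68 CPM in moderate CH and 29.9 ± 3.35 CPM in room air, and its groups did not overlap (-0.33 ± 0.13). KLF6, a zinc finger transcription factor, averaged 22.6 ± 4.68 CPM in moderate CH and 29.9 ± 2.75 CPM in room air (-0.40 ± 0.12). ZFP36, which speeds the decay of cytokine messengers, stood at 9.9, 12 and 17.2 CPM in moderate CH, against 9.3, 18.2 and 72.4 CPM in room air. Room air replicate 6 was far above the others, and without single libraries its log2 fold change ran from -1.18 to -0.34.

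Targets of the glucocorticoid receptor were uneven. Of 19 genes 11 were higher and 8 lower, 4 and 2 of them at an unadjusted p under 0.05, against 2.82% and 2.85% of all genes. Without moderate replicate 3 the 6 became 3, where 650 of 15404 genes in all were at this p. FKBP5, a chaperone that the receptor induces, stood at 8.46, 20.8 and 103 CPM in moderate CH, against 6.75, 11.2 and 13.1 CPM in room air. Moderate replicate 3 had 103 CPM, replicates 4 to 6 from 19.7 to 28.0 CPM, and replicates 1 and 2 were within the room air range. FKBP5 had a log2 fold change of 1.59 ± 0.50 (unadjusted p = 0.00433), and 0.73 without moderate replicate 3. ZBTB16, another induced gene, averaged 19.6 ± 5.96 CPM in moderate CH and 11.9 ± 2.32 CPM in room air (0.72 ± 0.23), and CEBPB had 0.80 ± 0.34. NR3C1, the receptor itself, averaged 47.0 ± 12.1 CPM in moderate CH and 60.5 ± 4.98 CPM in room air (-0.36 ± 0.14). FKBP5 had log2 fold changes of 1.21 ± 0.34 in NTS, 1.36 ± 0.44 in RTN and 0.93 ± 0.35 in mPFC, and replicate numbers held 77.0% of its spread.

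Metabolic and housekeeping lists had medians nearer 0. Of 23 nuclear genes of oxidative phosphorylation 19 were higher, with a median of 0.14 and 0 members at an unadjusted p under 0.05. Their count ran from 15 without moderate replicate 1 to 23 without room air replicate 1. Of 21 ribosomal protein genes 14 were lower at a median of -0.03, but 1 was lower without room air replicate 1, 7 without moderate replicate 4, 8 without moderate replicate 5 and 21 without moderate replicate 1. Replicate 1 had the highest mean log2(CPM + 0.5) of this list in moderate CH (7.34), mild CH (7.73) and room air (7.48). Cholesterol synthesis and uptake genes were lower in 15 of 22 cases (median -0.09), with SC5D at -0.35 ± 0.14 and DHCR7 at -0.34 ± 0.16. The clock gene CRY2 averaged 148 ± 11 CPM in moderate CH and 130 ± 12.5 CPM in room air (0.19 ± 0.08), and 10 of 18 clock genes were higher. Of 7 choroid plexus and ependymal genes 6 were higher (median 0.50, and 0.23 without moderate replicate 6 or 0.27 without moderate replicate 5), with CCDC153, of cilia, at 8.45 ± 3.6 CPM in moderate CH and 4.55 ± 1.68 CPM in room air. Among the lists not yet described, 12 of 20 purine and adenosine genes, 13 of 19 cytokine genes, 8 of 12 connexins and pannexins, 9 of 16 heat shock and unfolded protein genes, 8 of 14 hindbrain HOX genes, 6 of 10 T cell genes and 4 of 7 oligodendrocyte precursor genes were lower.

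**Figure D5:**
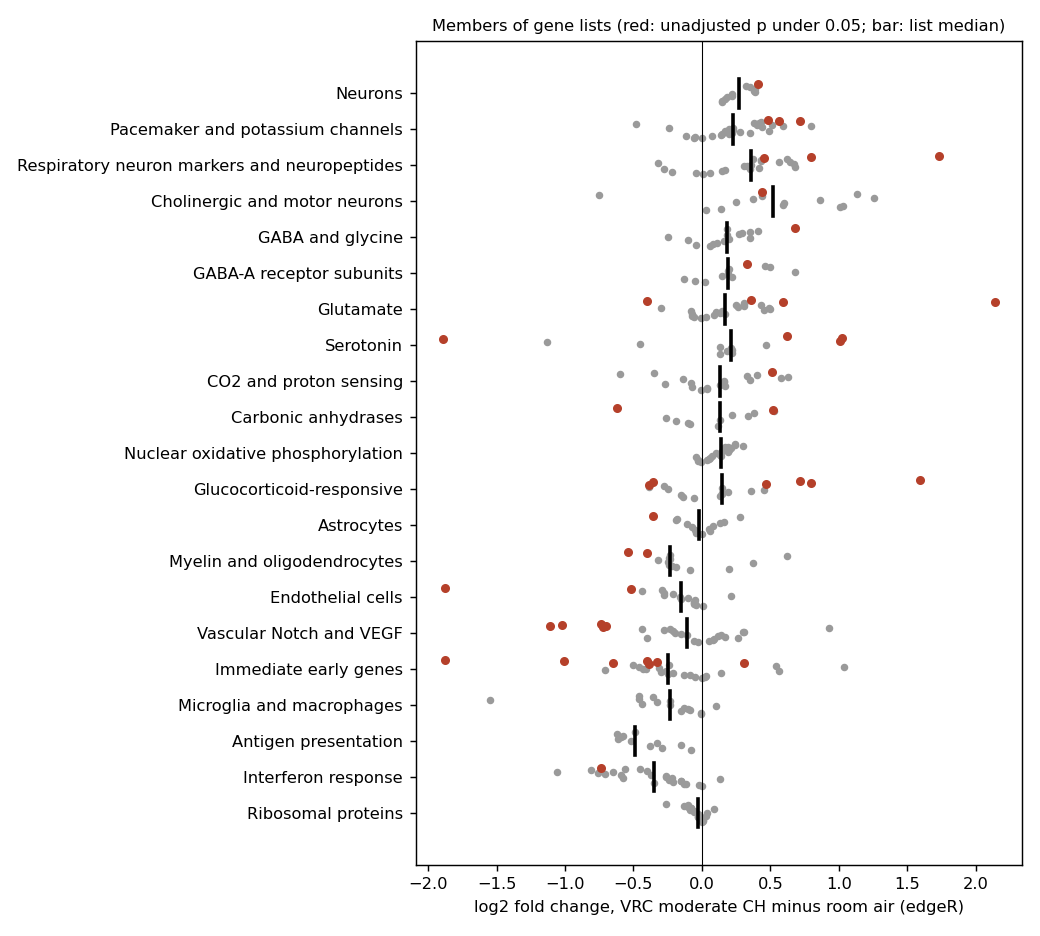
Log2 fold change, VRC moderate CH minus room air, of each tested member of 21 gene lists (points; red where the unadjusted edgeR p was under 0.05), with the list median as a bar. Neuronal lists have medians from 0.17 to 0.52, and myelin, microglia, antigen presentation and interferon lists from -0.49 to -0.23.

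Moderate CH was also set against mild CH in the VRC. The edgeR test called 0 of 15302 genes (0.0%), with 2375 at an unadjusted p under 0.05 (15.5%; 7.65% higher and 7.87% lower). This zero depended on the tool and on 1 library: DESeq2 called 253 genes (1.69%), limma with quality weights called 35, and the edgeR test without moderate replicate 6 called 252. For comparison, mild CH minus room air gave 953 genes at an unadjusted p under 0.05 (6.23%; 3.61% higher and 2.61% lower). All 11 antigen presentation genes were lower in moderate CH than in mild CH at an unadjusted p under 0.05 (median -1.28), as were 12 of 15 microglia genes (-0.75) and 15 of 25 interferon genes (-0.85). Mild replicate 3 held the highest level of these lists. Without it 6, 4 and 10 of these genes had an unadjusted p under 0.05, and the medians were -0.66, -0.51 and -0.56. Over all genes 1965 of 15375 were at this p in that fit. Neuronal genes were higher than in mild CH: 9 of 16 GABA and glycine genes and 5 of 12 GABA-A subunits at an unadjusted p under 0.05, with 0 lower. These became 5 of 16 without moderate replicate 4 and 3 of 12 without moderate replicate 5, and 6 of 16 without mild replicate 3. Over all genes there were 1991 of 15398, 2007 of 15385 and 1965 of 15375 at this p, in the same order. UNC5A had the smallest p among the genes named here, with a log2 difference of 0.68 ± 0.14 (unadjusted p = 7.44e-05) and averages of 26.3 CPM in room air, 24.1 CPM in mild CH and 38.7 CPM in moderate CH. ERMN and BCAS1 were near room air in mild CH, with mild CH minus room air log2 fold changes of 0.01 ± 0.14 and -0.01 ± 0.20.

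Whether the VRC responded unlike the other regions was tested gene by gene on all 72 libraries. They were taken as independent, although same-numbered libraries deviated together. No gene was called by edgeR (0 of 16372, 0.0%), and 373 had an unadjusted p under 0.05 (2.28%; 1.31% higher and 0.971% lower). Among genes with a symbol and at least 5 CPM, CDO1 had the smallest p. CDO1, which starts the path from cysteine to taurine, stood at 19.1, 30.4 and 37.1 CPM in moderate CH, against 16, 21.7 and 25.1 CPM in room air. Its log2 fold change was 0.47 ± 0.16 in VRC, -0.11 ± 0.12 in NTS, -0.07 ± 0.11 in RTN and 0.00 ± 0.11 in mPFC, a difference of 0.53 ± 0.15 (unadjusted p = 0.00082). COCH, a secreted matrix protein, averaged 8.92 ± 6.15 CPM in moderate CH and 2.85 ± 1.85 CPM in room air (1.63 ± 0.47 in VRC, difference 1.53 ± 0.45, unadjusted p = 0.0011). Moderate replicates 3 and 5 were highest, at 18.6 and 13.7 CPM. In NTS libraries COCH averaged 64.8 ± 36.2 CPM in moderate CH and 42.9 ± 18.4 CPM in room air (scaled over 72 libraries). ADAM11, a synaptic membrane protein, averaged 8.68 ± 2.45 CPM in moderate CH and 5.94 ± 1.49 CPM in room air (difference 0.59 ± 0.19, unadjusted p = 0.00297). CC2D1B and THUMPD2 were lower, with differences of -0.33 and -0.53 and VRC log2 fold changes of -0.17 ± 0.10 and -0.27 ± 0.17. HOXD3 had a difference of 1.41, yet its VRC means were 8.13 ± 1.13 CPM in moderate CH and 8.4 ± 1.09 CPM in room air. Its log2 fold change was -0.81 ± 0.44 in RTN, and mPFC stood at 0 CPM in all 6 moderate CH libraries and at most 0.234 CPM in room air.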

How the data were processed

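The authors deposited counts per gene (raw whole numbers) and RPKM values for 21343 protein-coding goat genes in 72 libraries; another deposited column, of the unit other, gives gene length. Per the labels, total RNA went through a low-input SMARTer kit. Trimmomatic, STAR, featureCounts, edgeR and FastQC are listed in the submitters' processing notes. The sources used here give no version, build or strand setting, so antisense or overlapping genes may share reads and only chromosomes are printed. RPKM served to check library sizes (1.0047 to 1.0069 times the count sums). A symbol is missing for 6643 genes, and the RefSeq table supplied carries none of these identifiers. No per-sample column went unused (0).

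The 18 VRC libraries were fitted together on the deposited counts with edgeR 4.0.16 in R 4.3.3: normalization by TMM, genes kept by filterByExpr (minimum count 10), and quasi-likelihood tests adjusted by Benjamini-Hochberg at 0.05. The region difference used 72 libraries, taken as independent. Alternatives were DESeq2 1.42.0, limma 3.58.1 with quality weights, RLE factors, no filter, 2 groups alone, the replicate number as a block, a myelin covariate and leaving out each library. The scripts were tested on simulated data. No 2 libraries were near copies (chi-square per degree of freedom 16.8 to 128.21). Same-numbered VRC libraries of moderate CH and room air had a median r of 0.023, with 2 of 6 over 0.1. These were 0.458 for replicate 1 and 0.328 for replicate 5. The labels state no pairing between conditions, so the main fit took none, and what these numbers share was not tested.

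The genes and lists were chosen with earlier results of these data known. Named genes are those DESeq2 called; per direction the 12 of smallest p having a symbol, averaging 5 CPM or more, and with 5 of 6 moderate CH libraries on the side of the change; up to 4 members of each list at an unadjusted p under 0.05, otherwise the 2 most abundant; the 6 of smallest p in the region test; and region markers. Some are not reported here. Totals of 14.08 to 22.56 M counts mean that a gene at 1 CPM rests on few reads.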

Additional observations from a re-analysis of the deposited data

Results flagged for a closer look

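For 77 of the genes named with a fold change, moderate CH and room air were screened as 154 groups of 6 libraries. CEBPB and the genes added under the other observations were not among the 77. In 18 groups a library had a gap to its neighbour over Dixon's 95% limit as a share of the range. For normally distributed values about 1 in 20 such groups would be flagged by chance alone. The screen used CPM without a log, which can be skewed, so its own chance rate is not known. Moderate replicate 6 was set apart in 6 of them, at 23.7 CPM for UNC5A and 112 CPM for SYN1 at the low end, and at 43.1 CPM for ASPA, 9.66 CPM for IFI44L, 72.8 CPM for CC2D1B and 188 CPM for CD74 at the high end. Room air replicate 1 was highest in 4, at 142 CPM for CAHI-DQA2, 2100 CPM for S100B, 11 CPM for THUMPD2 and 154 CPM for HLA-DRA. Moderate replicate 3 was highest for VEGFA (36.5 CPM, against 26.9 CPM for the next) and for FKBP5 (103 CPM, against 28.0 CPM). Moderate replicate 5 was highest for RFLNB (12.7 CPM), HTR4 (2.37 CPM) and ADCYAP1 (283 CPM). Among room air libraries replicate 2 was lowest for ENSCHIG00000012657 (1.76 CPM, against 10.7 CPM), replicate 4 highest for ACSF3 (20.3 CPM) and replicate 6 highest for ZFP36 (72.4 CPM, against 19.9 CPM).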

How the results depend on the processing

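The count of genes at an adjusted p under 0.05 between moderate CH and room air was 0 with RLE factors, no filter, limma, the newer quasi-likelihood fit and the myelin covariate, 10 with DESeq2, 1 in a fit limited to both groups, and 0 to 3 when single libraries were left out. With the replicate block it was 0, and 974 genes had an unadjusted p under 0.05. The 867 genes at an unadjusted p under 0.05 became 1360 with limma and 650 to 1628 when single libraries were left out. Moderate CH against mild CH gave 0 calls in edgeR, 253 with DESeq2, 35 with limma, 0 with the replicate block and 0 to 252 without single libraries, an alternative added after the data had been seen, as was that for the gene lists. The region difference gave 2 genes with DESeq2, neither among the genes tested in VRC, and 0 with the replicate number read as an animal (limma, 446 at an unadjusted p under 0.05). Genes without overlap numbered 34 under either other scaling. The same 77 genes were mostly named for a small p in these libraries, which every alternative refits. A kept sign therefore follows largely from that choice. Of their 1540 fold changes under alternatives, 2 had another sign. Both were of HOXD3 (-0.05), which ran from -0.11 to 0.00 when single libraries were left out. The cause of these shifts was not tested. With 6 libraries a group and a common coefficient of variation of 0.259, small changes of genes near 1 CPM were not detectable.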

Other observations

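Of the 32 genes whose moderate CH and room air libraries did not overlap (0.209% of those tested), 5 are named above. An arbitrary division of these libraries into equal groups would give about the same share. The rest fall outside the naming rule, and those given here were chosen after their values had been seen. Among higher genes, SARAF, which damps calcium entry after store depletion, averaged 352 ± 31.4 CPM in moderate CH and 294 ± 9.94 CPM in room air, a log2 fold change of 0.26 ± 0.09 (edgeR adjusted p = 0.849). HILPDA, a lipid droplet protein induced by low oxygen, averaged 2.89 ± 0.302 CPM in moderate CH and 2.12 ± 0.279 CPM in room air, whereas VEGFA and ADM were lower. LPAR3, a receptor for lysophosphatidic acid, averaged 4.75 ± 0.496 CPM in moderate CH and 2.89 ± 0.555 CPM in room air (0.71 ± 0.27). Among lower genes, RILPL1, a regulator of cilia, averaged 72 ± 10.2 CPM in moderate CH and 94.9 ± 6.25 CPM in room air (-0.40 ± 0.12), and RSU1, an adhesion protein, 47.1 ± 4.24 CPM in moderate CH and 57.7 ± 2.72 CPM in room air (-0.29 ± 0.09). OLR1, a scavenger receptor of endothelium and macrophages, averaged 0.157 ± 0.218 CPM in moderate CH and 0.816 ± 0.273 CPM in room air. FYB1, an adaptor of immune cells, averaged 4.06 ± 0.953 CPM in moderate CH and 6.65 ± 1.83 CPM in room air (-0.70 ± 0.31). No gene of this paragraph passed correction in edgeR.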
